A study of Mus musculus with 2 samples.

Results

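Stem and progenitor cells of the mouse hair follicle sit in the bulge, a niche in the upper permanent follicle, and in the outer root sheath that runs down from it. The expression of 10 genes that mark or maintain these cells was compared between 2 Affymetrix Mouse430_2 arrays, with every probe set annotated to 1 of the gene symbols Cd34, Lgr5, Lgr6, Sox9, Lhx2, Nfatc1, Tcf7l1, Tbx1, Krt15 and Trp63. These genes were read by 22 of the 45037 non-control probe sets, and they are 10 of the 18193 genes with a named probe set. The transgenic array held RNA from hair follicles of dnFGFR2-IIIb transgenic mice, whose transgene derives from the IIIb isoform of FGFR2, a receptor for fibroblast growth factors. The wild-type array held RNA from follicles of wild-type mice. In both groups the mice were at postnatal day 10, and 3 mice from separate litters were pooled, with some 100 follicles from each. The sources used here give neither the strain nor the promoter that drives the transgene. With 1 array per group there is no replicate spread and no p-value, and each difference describes these 2 arrays.

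The members fall into classes by what their proteins do. Lgr5 and Lgr6 are receptors for R-spondins, secreted proteins that strengthen Wnt signalling by removing the ubiquitin ligases Rnf43 and Znrf3 from the cell surface, and Lgr5 marks the lower bulge, hair germ and outer root sheath while Lgr6 marks the isthmus above the bulge. Sox9, Lhx2, Nfatc1, Tcf7l1, Tbx1 and Trp63 encode transcription factors. Cd34, a cell surface sialomucin, and Krt15, a type I keratin, serve as markers of bulge keratinocytes in the mouse. The follicle of a mouse at this age is in its first growth phase, in which the outer root sheath surrounds the growing hair shaft.

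The values are linear intensities in arbitrary units, given here as deposited. Log2 ratios are transgenic over wild-type after both arrays were rescaled to the same trimmed mean, which altered the signals by negligible factors. A signal counted as measured above a floor of 10.6, the 40th percentile of both arrays. The brightest of 27 bacterial control probe sets, which have no target in mouse RNA, read 15.8 for transgenic and 8.5 for wild-type follicles, so transgenic signals under about 15.8 lie near the background. All 22 member probe sets exceeded the floor on both arrays, and 17 of them exceeded 15.8 on both. As a technical yardstick, named probe sets were split into equal bins of dim, middle and bright mean signal, divided at 45.2 and 173. Where a gene had several probe sets in a bin, their log2 ratios scattered with an SD of 0.53 in the dim bin, 0.36 in the middle bin and 0.20 in the bright bin. This technical SD does not contain the variation between mice, which were pooled.

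Other properties of the arrays moved with the groups. The ratio of 3' to 5' signal was 2.06 in transgenic follicles and 1.89 in wild-type follicles for beta-actin, and 0.852 and 0.796 for Gapdh in the same order. The 5' probe set of 18S ribosomal RNA read 10275 in transgenic follicles and 3655 in wild-type follicles. Xist, the RNA of the inactive X chromosome, read 1146 in transgenic follicles and 352 in wild-type follicles. The Y-linked gene Eif2s3y read 0.4 and 191 in that order. The pools thus differed in their sex-linked signals. Eif2s3y lay under the floor in the transgenic pool, while the wild-type pool gave both signals. The part of these differences in the results was not tested. Fgfr2 itself read 368 in transgenic follicles and 197 in wild-type follicles at 1433489_s_at, and 206.5 and 146.9 at 1420847_a_at. These readings do not check the labels, since it is not known whether the probes lie within the transgene. Of 8 hair matrix and shaft markers with a named probe set, 8 exceeded the floor on both arrays, with Foxn1 at 775 in transgenic follicles and 759 in wild-type follicles. Medians of further gene lists are taken over genes above the floor on both arrays.

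Of the 22 member probe sets, 12 differed between the arrays by no more than the technical SD. The other 10 differed by more, where 35.7% of all 20357 named probe sets above the floor did. The largest differences at the brightest probe set of each gene were lower readings of Cd34 and Nfatc1 in transgenic follicles. At least 2-fold differences with both signals above the floor were seen in 1 member probe set that read higher, against 2.45% of all 23511 probe sets above the floor, and in 0 that read lower, against 1.62%. A single probe set in 22 is close to this background and is no result about the stem genes. By the brightest probe set of each gene, 0 of 10 were 2-fold higher or lower, where 1.6% of 11565 genes were higher and 1.58% lower. A ratio under 1 was found for 8 of the 10 genes, where 50.1% of all genes had one, and for 14 of the 22 probe sets, where 46.7% of all had one. The median log2 ratio of the 10 genes was -0.18, against 0.01 for all genes above the floor on at least 1 array. With the mean over probe sets in place of the brightest, 6 of the 10 genes had a ratio under 1. The median was then -0.08, while that of all genes was 0.03. With the arrays scaled to equal spiked controls, 5 of the 10 genes had a ratio under 1 and the median became 0.01, while that of all genes became 0.19. In RNA from whole follicles, fewer cells of a type and less RNA per cell cannot be told apart.

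**Figure D1:**
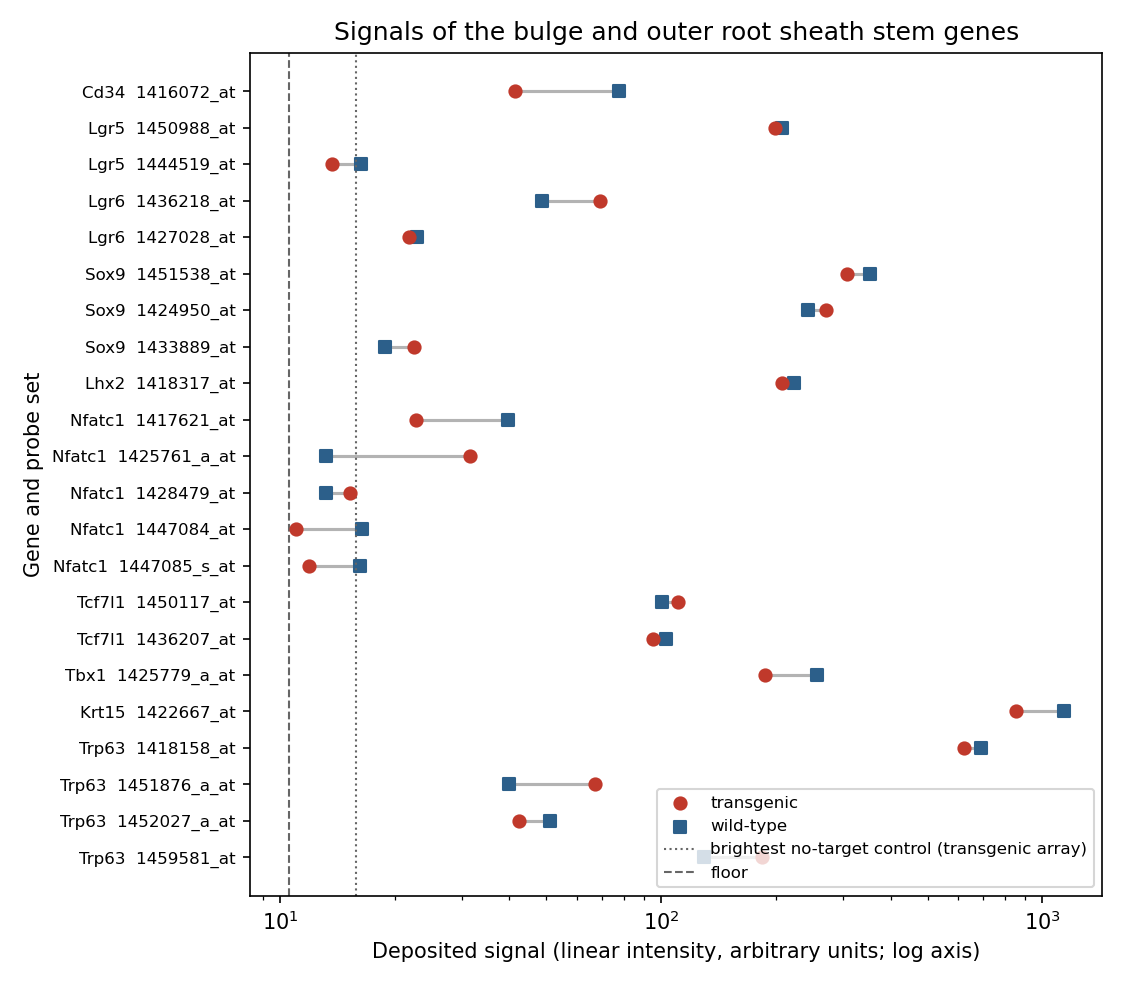
Deposited signal of each of the 22 probe sets (rows, gene and probe set) on the transgenic array (red circles) and the wild-type array (blue squares), on a log axis in arbitrary units, with no error bars because there is 1 array per group. The dashed line is the floor of 10.6 and the dotted line the brightest no-target control of the transgenic array at 15.8. The widest gaps are those of Nfatc1 1425761_a_at, with 31.5 in transgenic follicles and 13.2 in wild-type follicles, and of Cd34, with 41.4 and 77.6 in the same order.

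Of Cd34 and Krt15, the 2 members listed here as bulge surface and keratin markers, both read lower in transgenic follicles. Which cells gave these signals at postnatal day 10 was not tested. Cd34 read 41.4 in transgenic follicles and 77.6 in wild-type follicles, 1.87-fold lower, a log2 ratio of -0.91. This was the lowest ratio among the 22 probe sets, and 3.86% of probe sets in the middle bin of brightness lay at least as far from 0. Cd34 has a single probe set on the array, so no second reading is at hand. Krt15 read 852 in transgenic follicles and 1138 in wild-type follicles, 1.34-fold lower, a log2 ratio of -0.42. That difference is beyond the SD of 0.20 between bright probe sets, and 10.1% of bright probe sets lay at least as far from 0. Krt15 also has 1 probe set.

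Cd34 is expressed by endothelial cells and dermal fibroblasts as well as by bulge keratinocytes, so markers of other cells are given beside it. Of the endothelial markers other than Cd34, 6 exceeded the floor on both arrays, with 2 ratios over 1 and 4 under 1 and a median log2 ratio of -0.14. The summed signal of these markers without Cd34 was 181 in transgenic follicles and 209 in wild-type follicles, or 222 and 286 in the same order with it. Pecam1, a defining marker, was under the floor on both, at 1.4 and 1.6. Cdh5, the cadherin of endothelial junctions, read 42.3 in transgenic follicles and 13.7 in wild-type follicles, while Egfl7, a secreted endothelial protein, read 25.8 and 69.5. The other probe sets of Egfl7 gave log2 ratios of -0.34, 0.29 and 0.19, and that of Cdh5 was under the floor on both arrays. The endothelial markers thus went both ways.

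Of 9 fibroblast and dermal sheath markers above the floor, 5 had a ratio over 1 and 4 under 1, with a median of 0.09 and a summed signal of 3337 in transgenic follicles and 2562 in wild-type follicles. Dcn, the matrix proteoglycan decorin, read 1590 and 985 on these arrays, and Col1a1, a chain of type I collagen, 117 and 90.7. The other probe set of Col1a1 gave a log2 ratio of 0.93. Pdgfrb, a receptor of mural and dermal cells, read 41.5 in transgenic follicles and 72.8 in wild-type follicles. Its other probe set, near the floor, read 13.1 and 14.9 in the same order, a log2 ratio of -0.19. Of 10 markers of mast and other blood cells, only Kit, with log2 ratios of -0.37 and 0.08 from its pair of probe sets, and Lyz2, with 0.60, exceeded the floor on both arrays. The mast cell protease genes Cpa3, Mcpt4, Tpsb2 and Cma1 read 14.4, 9.9, 3.2 and 11.2 in transgenic follicles and 1.1, 1.2, 12.1 and 6.3 in wild-type follicles, none of them above the floor on both arrays. The summed signal of that list was 183 in transgenic follicles and 175 in wild-type follicles. The part of these cells in the Cd34 reading was not tested.

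Of the R-spondin receptors, Lgr5 read nearly alike on both arrays, and Lgr6 read higher in transgenic follicles at 1 of its 2 probe sets. Lgr5 read 199 in transgenic follicles and 207 in wild-type follicles, a log2 ratio of -0.06, at 1450988_at. Its other probe set, near the floor, read 13.7 and 16.3 in the same order, a log2 ratio of -0.25. Both lie within the technical SD of their brightness, a yardstick that sets no limit of detection. Lgr6 read 69.1 in transgenic follicles and 48.8 in wild-type follicles at 1436218_at, 1.42-fold higher, a log2 ratio of 0.50. The second Lgr6 probe set read 21.8 in transgenic follicles and 22.9 in wild-type follicles, a log2 ratio of -0.07, and thus does not show the difference of the first.

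Of the 11 R-spondin receptors and partners, a list that includes Lgr5 and Lgr6, 9 exceeded the floor on both arrays, 7 with a ratio over 1, which 49.9% of all genes had, and 2 under 1, and the median log2 ratio was 0.28. The median was 0.14 with equal medians of the arrays and 0.48 with equal spiked controls. At least 2-fold higher readings were seen in 1 of the 9, where 1.6% of all genes passed. This was the ligand gene Rspo3, at 34.9 in transgenic follicles and 14.7 in wild-type follicles. Rspo2 read 31.2 in transgenic follicles and 21 in wild-type follicles. Rnf43, whose protein Lgr receptors and R-spondins clear from the membrane, read 63.5 and 43.1 in the same order, and Lgr4, another receptor of the family, gave a log2 ratio of 0.28. Rspo4 and Lrp5 lay under the floor on both arrays.

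Of the transcription factors, Tbx1 and Nfatc1 showed the lowest ratios. Tbx1, a T-box factor tied to the self-renewal of bulge cells, read 187 in transgenic follicles and 256 in wild-type follicles, 1.37-fold lower, a log2 ratio of -0.46. Its single probe set lies beyond the SD of 0.20 for bright probe sets, and 7.8% of these lay at least as far from 0. The probe set is of a type that can match several transcripts of a gene.

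Nfatc1, a calcineurin-regulated factor that keeps bulge cells quiescent, was read by 5 probe sets that disagreed. The brightest, 1417621_at, read 22.8 in transgenic follicles and 39.7 in wild-type follicles, 1.74-fold lower, a log2 ratio of -0.80. By contrast 1425761_a_at read 31.5 in transgenic follicles and 13.2 in wild-type follicles, 2.39-fold higher, with the wild-type signal near the floor. This was the member probe set that passed 2-fold. The others gave log2 ratios of 0.21, -0.58 and -0.45, with both signals between 11 and 16.4. The mean over the 5 probe sets was -0.07, and no direction for Nfatc1 can be given.

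Calcineurin is the phosphatase that moves NFAT proteins into the nucleus. A list of the NFAT family, its regulators and calcineurin, with Nfatc1 and Cdk4 included, had 10 genes above the floor. Of these, 0 were 2-fold apart, 4 had a ratio over 1 and 6 under 1. The median was -0.05, or 0.14 with equal spiked controls. Cdk4, which is neither an NFAT factor nor part of calcineurin, read 1117 in transgenic follicles and 1110 in wild-type follicles. Nfatc3 read 146 in transgenic follicles and 118 in wild-type follicles. Ppp3ca, a catalytic subunit of calcineurin, read 123 and 161 in that order, but its other probe sets gave 0.04 and 0.11 on the log2 scale.

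**Figure D2:**
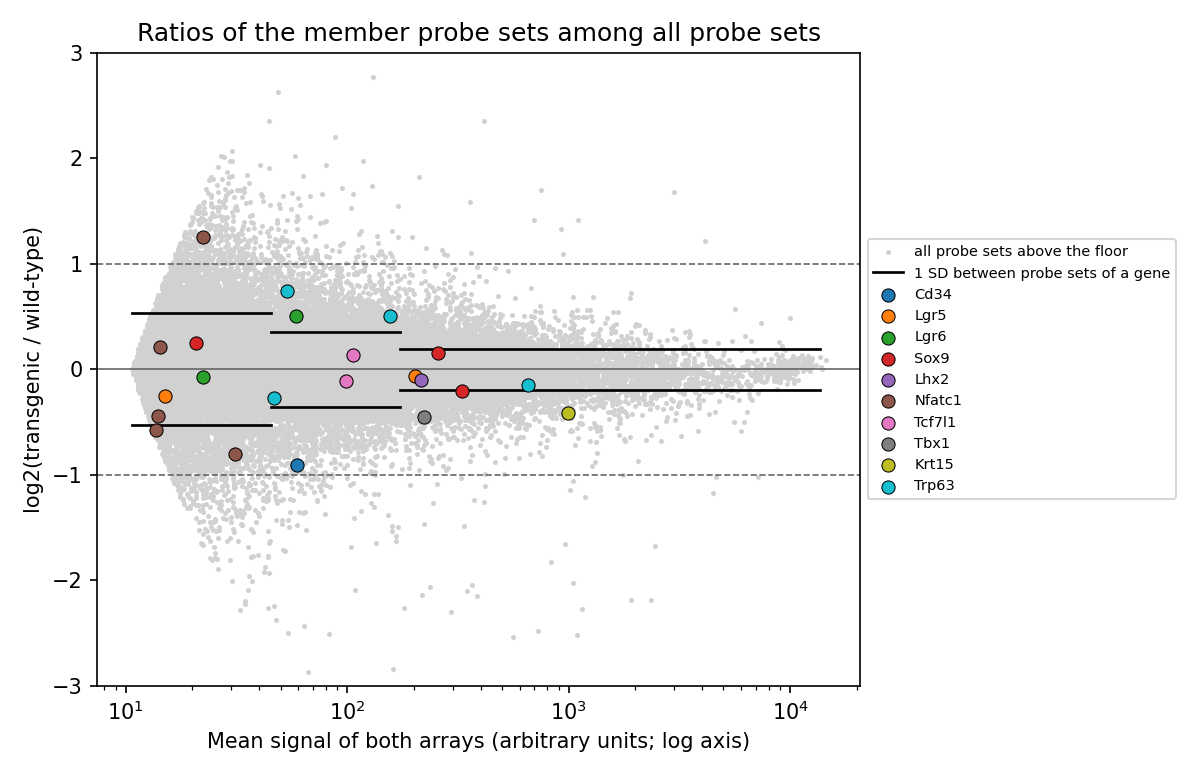
Log2 ratio of transgenic over wild-type signal (vertical axis) against the mean signal of both arrays (horizontal log axis, arbitrary units) for all probe sets above the floor (grey) and the 22 member probe sets (coloured by gene), with 2-fold lines dashed and black bars at 1 SD between probe sets of a gene. The vertical axis stops at 3 in both directions, which leaves out 8 grey probe sets. Most member points lie within the grey cloud near 0, and the 5 Nfatc1 points lie at its dim end and spread from -0.80 to 1.25.

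Sox9, an HMG-box factor needed to form the bulge and outer root sheath, and Lhx2, a LIM homeobox factor of bulge cells, had ratios closer to 1 than Tbx1. Sox9 read 307 in transgenic follicles and 354 in wild-type follicles at 1451538_at, a log2 ratio of -0.21, just beyond the technical SD of 0.20. Its second probe set, 1424950_at, read 271 and 242 in the same order, a log2 ratio of 0.16, and 1433889_at, which was dim, gave 0.25. The probe sets of Sox9 thus went both ways. Lhx2 read 208 in transgenic follicles and 223 in wild-type follicles with its single probe set, a log2 ratio of -0.10, within the technical SD.

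Tcf7l1, a TCF/LEF factor that acts mainly as a repressor of Wnt target genes, had 2 probe sets with small ratios of opposite sign. At 1450117_at it read 111 in transgenic follicles and 101 in wild-type follicles, a log2 ratio of 0.14, and at 1436207_at 95.2 and 103, a log2 ratio of -0.11. Both are within the technical SD of 0.36. Of 8 genes of the TCF/LEF and Groucho/TLE family above the floor, Tcf7l1 included, 8 had a ratio over 1. Among all genes 49.9% had one. Of the 8 genes 0 were 2-fold apart, and the median was 0.22. With equal medians of the arrays 5 of the 8 had a ratio over 1, and the median was 0.07. With equal spiked controls the median was 0.40. Tle1, a co-repressor of TCF proteins, read 74.2 in transgenic follicles and 56.6 in wild-type follicles, while its second probe set gave a log2 ratio of -0.35. Tle2 gave 0.37, near the floor, and Tcf7l2, another TCF factor, gave 0.29. The other Tcf7l2 probe sets gave 0.08, 0.45 and -1.36. The last of these read 8.1 in transgenic follicles, under the floor, and 27 in wild-type follicles.

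Trp63 encodes p63, the factor that maintains the basal layer of stratified epithelia and is made in several isoforms. Its brightest probe set, 1418158_at, read 623 in transgenic follicles and 692 in wild-type follicles, a log2 ratio of -0.15, within the technical SD. Higher readings came from 1451876_a_at, with 67.1 in transgenic follicles and 40 in wild-type follicles (log2 ratio 0.75), and from 1459581_at, with 184 and 130 (0.50). The remaining one, 1452027_a_at, read 42.3 and 51.2 (-0.28). The 4 probe sets were split evenly between the directions, and which isoforms each of them reads is not known here.

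Of 16 genes of the p63 family and known p63 targets with a named probe set, Trp63 included, 2 were 2-fold higher, where 1.6% of all genes were, 0 were 2-fold lower, where 1.58% were, 9 had a ratio over 1 and 7 under 1, with a median of 0.04. The p53-family gene Trp73 read 31.9 in transgenic follicles and 13.6 in wild-type follicles, but 2.9 and 14.1 at its other probe set. Fras1, an extracellular matrix gene of the epidermal basement membrane, read 47.2 in transgenic follicles and 23.3 in wild-type follicles, with 5.5 and 31.8 at its other probe set. Fgfr2, the parent gene of the transgene, had a log2 ratio of 0.90, and of 0.49 at its other probe set above the floor. For Trp73 and Fras1 the 2 probe sets thus went opposite ways.

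Across the 10 members, 6 had several probe sets and 5 of these had ratios on both sides of 1, Lgr5 being the exception. Of all member probe sets, 10 lay beyond 1 technical SD, 6 of them lower and 4 higher, against 35.7% of all 20357 named probe sets above the floor. The ratios of Cd34, Tbx1, Krt15, Nfatc1 and Lgr6 kept their sign under every alternative setting in which they had a value. For Cd34, Tbx1 and Krt15, with 1 probe set each, the mean over probe sets only repeats the same reading. The probe sets of Nfatc1 and of Lgr6 went both ways, so the kept sign gives no direction for these genes. Those of Sox9 and Trp63 turned positive with the mean over probe sets. The ratios of Lgr5, Lhx2, Tcf7l1 and Trp63 were small enough to change sign when a scaling moved all genes together.

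**Figure D3:**
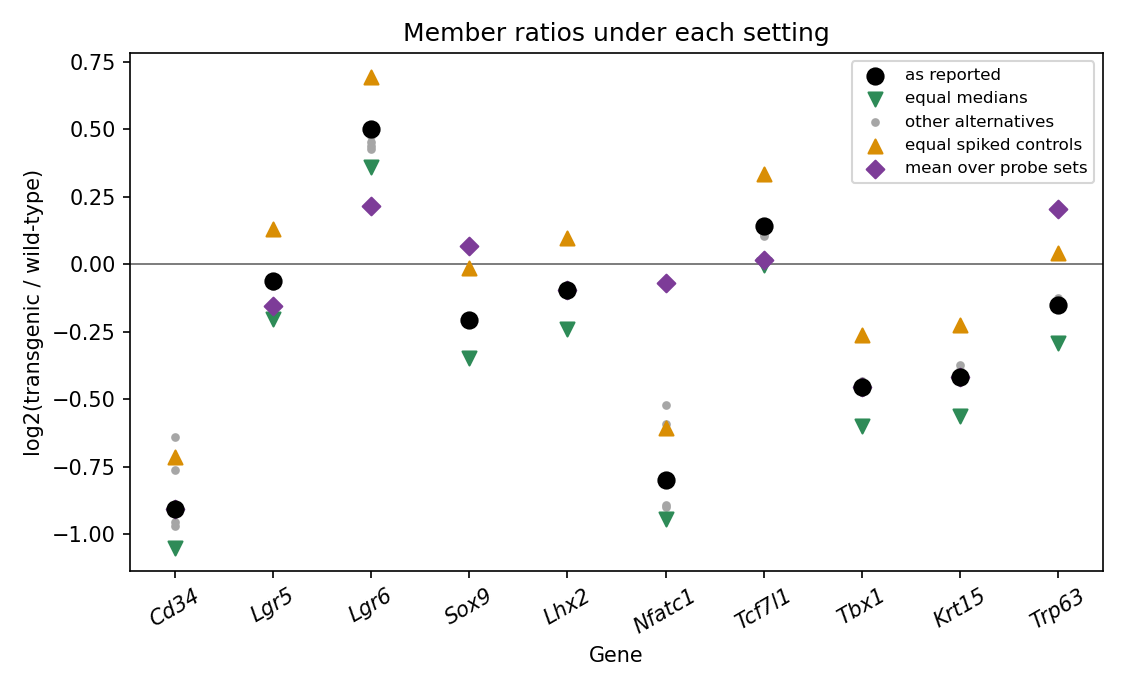
Log2 ratio of transgenic over wild-type signal for each of the 10 genes (horizontal axis) as reported from the brightest probe set (black), with equal medians (green), with equal spiked controls (orange), as the mean over probe sets (purple) and under the other alternatives (grey). Cd34 stays between -1.05 and -0.64, Nfatc1 spans -0.94 to -0.07, and Trp63 lies on both sides of 0.

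Further genes of the bulge went both ways, while keratins of the outer root sheath and basal layer had ratios under 1 that depended on the scaling. Of 25 further bulge and hair germ genes, 21 exceeded the floor on both arrays, 12 with a ratio over 1 and 9 under 1, 0 were 2-fold apart and the median was 0.06. Sfrp1, a secreted Wnt antagonist of the bulge, read 77.1 in transgenic follicles and 125 in wild-type follicles, a log2 ratio of -0.70, and its other probe sets gave -0.37, 0.24, 0.60 and -1.03. Bmp6, a growth factor linked to bulge quiescence, read 103 and 75 in the same order, and Runx1, a transcription factor of hair follicle stem cells, 60.6 and 45.1, with log2 ratios from -0.54 to 0.78 at the other probe sets of Runx1. Of the outer root sheath and basal keratins, 5 exceeded the floor on both arrays. All 5 had a ratio under 1, where 50.1% of all genes had one, and 0 were 2-fold lower. Their log2 ratios ran from -0.55 to -0.02, with a median of -0.18. Krt6b, chosen after its values were seen, was above the floor in wild-type follicles alone, and the median with it set to the floor was -0.31. Among these, Krt16 read 177 in transgenic follicles and 260 in wild-type follicles, Krt17 read 2894 and 3940, and Krt14 read 3955 and 4474. The other probe set of Krt17 gave a log2 ratio of -0.04, and those of Krt14 gave -0.30 and -0.34. With equal spiked controls the keratin median was 0.01, and 2 of the 5 had a ratio under 1. The sign of the smaller list medians depended on the scaling. Equal medians turned those of the further bulge genes to -0.08, the p63 list to -0.10 and the fibroblast markers to -0.05. Equal spiked controls turned that of the endothelial markers without Cd34 to 0.05.

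**Figure D4:**
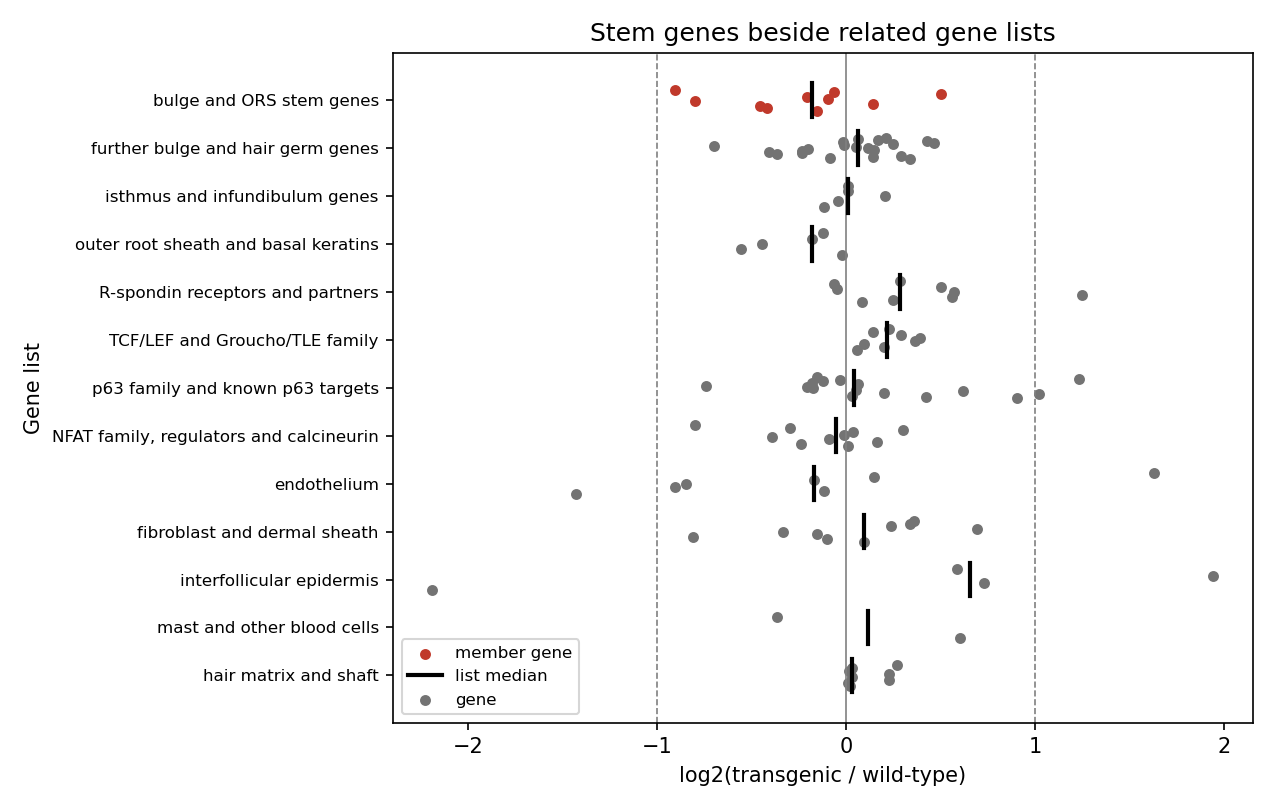
Log2 ratio of transgenic over wild-type signal for each gene above the floor on both arrays (points), by gene list (rows), with the list median over the same genes (black bar) and 2-fold lines dashed. The stem genes (red) have a median of -0.18, the outer root sheath and basal keratins -0.18 and the further bulge and hair germ genes 0.06. Some genes stand in several lists.

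To show the regions before 2 of the members with lower readings, the 250 bases before the annotated start are given for Cd34 and for Tbx1. They come from RefSeq, build GRCm38.p6, and such sequences were used for 5 of the 10 members. Cd34 and Tbx1 had the lowest ratios among these 5. Nfatc1, whose brightest probe set had a lower ratio than Tbx1, was left out of the 5. Cd34 lies on the plus strand with this region at chr1:194938571-194938820, and Tbx1 on the minus strand at chr16:18590672-18590921, the outer of its 2 listed starts. Capitals mark matches to the letters GGAAA or TTTCC, the core recognised by NFAT proteins on either strand.
Cd34: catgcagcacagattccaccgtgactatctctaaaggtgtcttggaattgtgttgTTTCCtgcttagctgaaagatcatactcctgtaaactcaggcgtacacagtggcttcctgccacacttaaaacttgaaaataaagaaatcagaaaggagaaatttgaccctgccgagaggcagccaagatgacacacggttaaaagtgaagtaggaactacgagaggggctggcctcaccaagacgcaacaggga
Tbx1: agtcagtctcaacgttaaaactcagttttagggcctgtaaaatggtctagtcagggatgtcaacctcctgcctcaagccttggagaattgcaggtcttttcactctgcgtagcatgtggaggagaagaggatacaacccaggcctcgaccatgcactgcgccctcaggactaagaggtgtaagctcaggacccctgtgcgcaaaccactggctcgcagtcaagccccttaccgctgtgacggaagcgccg
The Cd34 region held 1 NFAT match and the Tbx1 region 0, where 55.6% of 32851 such regions held at least 1. The TCF/LEF letters CTTTGA and the SOX letters ACAATG, on either strand, were in neither region, and in 13.8% and 10.7% of all regions. A match of letters is a description of the sequence, and the arrays measured no binding.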

How the data were processed

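Total RNA of pooled follicles was hybridised to 2 arrays, 1 transgenic and 1 wild-type. Each deposited value is the linear intensity of 1 probe set, and a 2% trimmed mean of 100 in both columns shows that the authors scaled the arrays. No source used here gives the summary algorithm. The 64 control probe sets were left out, both arrays were rescaled to the same trimmed mean, and values under the floor were set to it. Of 45037 probe sets, 34945 had 1 gene symbol in the platform annotation. All 10 members matched a RefSeq symbol through their gene identifiers.

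The probe set with the highest mean signal stood for its gene, and list medians cover genes above the floor on both arrays. All members are named with every probe set. From each list up to 3 genes are named, those with the largest absolute log2 ratio among genes above the floor on both arrays. Xist, Eif2s3y, Foxn1, Lgr4, Rspo4, Lrp5, Krt6b, Pecam1, Cpa3, Mcpt4, Tpsb2, Cma1 and Cdk4 were named in addition, after their values were seen. The members and lists were chosen with earlier results of these data known. Recovery of known fold changes was checked on simulated data in which both arrays were alike apart from the altered probe sets. That check cannot show whether the scaling removes a difference between whole arrays. Alternatives were other scalings, floors, thresholds and probe set choices, and a floor at the brightest no-target control was chosen after seeing the data. Python 3.11.15, pandas 2.3.3 and statsmodels 0.14.6 were used. The number of arrays limits the precision.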

Additional observations from a re-analysis of the deposited data

How the results depend on the processing

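The 1 member probe set that passed 2-fold, of Nfatc1, gave a count of 0 higher probe sets with the floor at the 60th percentile, with a floor of 50, with a pseudocount in place of the floor, without probe sets that can match several transcripts, at a 3-fold threshold and with a floor at the brightest no-target control. With equal medians, 1 probe set and 1 gene, Cd34, were 2-fold lower, and the median log2 ratio of the 10 genes was -0.32. With equal spiked controls, 9 probe sets and 5 genes had a ratio under 1 and the median turned to 0.0144 on the log2 scale. The count of probe sets with a ratio under 1 was 9 with the floor at the 60th percentile and 7 with a floor of 50, because 14 and 10 of the probe sets then exceeded the floor on both arrays. At a 1.5-fold threshold, 2 probe sets were higher and 2 lower, and 2 genes were lower. The other causes were not tested. The median of the members minus that of all genes, -0.19 as reported, lay between -0.19 with equal medians and -0.11 with the mean over probe sets. Of 118 single gene values under alternatives, 115 moved by less than the technical SD. The 3 that moved by more were those of Sox9 (0.07), Nfatc1 (-0.07) and Trp63 (0.21) with the mean over probe sets. This share is no measure of robustness, because most alternatives could hardly move a ratio so far. The floor at the 20th percentile left every member ratio as reported. Equal spiked controls moved Krt15 only from -0.42 to -0.23, within the SD of 0.20 for bright probe sets. No paired analysis was possible because each group has 1 array.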

Other observations

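The isthmus and infundibulum are the follicle regions above the bulge. Of 6 genes of these regions, 5 exceeded the floor on both arrays, 3 with a ratio over 1 and 2 under 1, with a median of 0.01 and 0 of them 2-fold apart. The median was -0.13 with equal medians of the arrays and 0.20 with equal spiked controls. Prdm1, a transcriptional repressor, read 592 in transgenic follicles and 514 in wild-type follicles, Gata3, a zinc finger factor, 542 and 589, and the keratin gene Krt79 117 and 121.

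Interfollicular epidermis markers went both ways. Of the 4 above the floor on both arrays, 3 had a ratio over 1, with a median of 0.66, while their summed signal with 3 genes under the floor was 1112 in transgenic follicles and 3367 in wild-type follicles because of Ivl, which read 683 and 3110. Krt77 read 63.8 in transgenic follicles and 16.6 in wild-type follicles, and Lor 130 and 78.6. Hair matrix and shaft markers had a median of 0.03, led by Krt35 at 0.27, Lef1 at 0.23 and Hoxc13 at 0.23. With equal medians 5 of these 8 ratios were under 1.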
